A study of Mus musculus with 6 samples.

Results

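Cyp2c55 transcripts were 4.41 times as abundant in the colon epithelium of Zfp90ΔIEC mice as in that of Zfp90fl/fl mice, while the other Cyp2c genes measured at more than 10 FPKM, Cyp2c65 and Cyp2c68, differed by less than the spread between samples. The genes described are 10 members of the mouse Cyp2c subfamily, out of 52550 genes listed in each of 6 deposited profiles, and were taken by symbol: Cyp2c29, Cyp2c37, Cyp2c38, Cyp2c39, Cyp2c40, Cyp2c55, Cyp2c65, Cyp2c66, Cyp2c68 and Cyp2c69. The subfamily was taken up because Cyp2c55 was already known to differ between these genotypes, so the contrast is given for the 10 genes as a description. Fold changes, errors, intervals and whether a gene passed the test over all genes are given, but no p-values, and no support is drawn from them.

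RNA was sequenced from colon epithelium of 3 Zfp90fl/fl and 3 Zfp90ΔIEC samples, from male C57BL/6 mice, for which the labels give an age of 6 to 8 weeks, before the treatment. In Zfp90ΔIEC mice the floxed end of Zfp90, a zinc finger gene, is removed by a Cre recombinase under the Villin promoter, which is active in intestinal epithelium, and the Zfp90fl/fl controls are floxed littermates. Epithelial cells were loosened from the colon with EDTA and dithiothreitol. Every mouse had received the carcinogen azoxymethane at 10 mg/kg. From 5 days later came 3 cycles of 7 days of dextran sulfate sodium (DSS), which injures the colon, and 14 days of plain water. The DSS was at 2% per the labels, while the methods of the paper give a higher concentration. The mice were euthanized on day 80. The genotype fields of Zfp90ΔIEC replicates 2 and 3 name another gene number, and these samples were grouped by their titles. Genotypes were housed apart after weaning, and an effect of the cage and one of the genotype cannot be told apart. The paper reports colon tumors after this treatment, fewer and smaller in Zfp90ΔIEC mice, which also had milder colitis. Effects of this difference in disease and of the genotype cannot be told apart here either. The labels do not say whether a sample is 1 mouse, so that the errors cover the spread between samples. FPKM is the number of sequenced fragments per kilobase of transcript and per M mapped fragments, so that genes of different length can be set side by side, and values of a genotype are given in the order of replicates 1, 2 and 3. Zfp90 itself averaged 0.563 ± 0.0700 FPKM in Zfp90fl/fl and 0.149 ± 0.0573 FPKM in Zfp90ΔIEC samples (SD, n = 3 each), without overlap. Of all genes tested, 21.3% did not overlap. Zfp90 was too low to be among these, and in a test without the filter on low values it did not pass (log2 difference -0.445, adjusted p = 0.123 from limma). The values summed to between 429999 and 446674 FPKM per sample, and the depth was estimated at 26.1 to 28.7 M fragments.

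Cyp2c enzymes are cytochrome P450 monooxygenases of the endoplasmic reticulum, which receive electrons from the reductase Por and place oxygen on drugs, steroids, retinoids and polyunsaturated fatty acids. From arachidonic acid they form epoxides and hydroxy acids, lipid mediators that act on vessels, ion transport and inflammation. Most mouse Cyp2c genes are known from the liver, whereas Cyp2c55, Cyp2c65 and Cyp2c66 are known as genes of the gut. In mice the subfamily has grown by tandem duplication on chromosome 19, which leaves neighbouring genes with nearly the same sequence.

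The sequences bear on how well each gene can be measured. In the annotation of GRCm38 (GENCODE release M21), the 10 genes lie in 1 cluster on chromosome 19 that begins with Cyp2c55 at chr19:39007019-39042693, followed on the same strand by Cyp2c65 at chr19:39061015-39093944 and Cyp2c66 at chr19:39113898-39187072. Cyp2c68 at chr19:39688834-39741054, Cyp2c40 at chr19:39767071-39812814 and Cyp2c69 at chr19:39842814-39886799 follow on the minus strand. The coding stretch for the heme-binding loop, the part of a P450 that holds the iron, is shown because it makes the groups of near-identical copies visible. It has 30 bases in each gene and runs from exon 8 into exon 9, the last exon, so that an intron lies within it in the genome. For Cyp2c55 its ends lie at 39038232 and 39042036, for Cyp2c65 at 39090760 and 39093342 and for Cyp2c68 at 39699270 and 39689234. Each line gives the coding strand 5′ to 3′, with capitals at the positions where a gene differs from Cyp2c55.
Cyp2c55: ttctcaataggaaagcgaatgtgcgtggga
Cyp2c65: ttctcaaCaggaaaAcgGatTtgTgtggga
Cyp2c66: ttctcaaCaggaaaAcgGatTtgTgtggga
Cyp2c68: ttctcaGCaggaaaAcgGatTtgTgtggga
Cyp2c40: ttctcaGCaggaaaAcgGatTtgTgtggga
Cyp2c69: ttctcaGCaggaaaAcgGatTtgTgtggga
The stretch of Cyp2c55 differed from that of Cyp2c65 and Cyp2c66 at 5 positions and from that of Cyp2c68, Cyp2c40 and Cyp2c69 at 6, and within each of these groups the stretches were the same. Over the whole coding sequence, Cyp2c55 was 75.5% identical to Cyp2c65, 75.6% to Cyp2c66 and 72.8% to Cyp2c68, whereas Cyp2c65 and Cyp2c66 were 96.3% identical, and Cyp2c68 and Cyp2c69 96.5%.

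Of the 150-base windows of a transcript, the length of 1 read, 0 of 1846 windows of Cyp2c55 occurred in a transcript of another gene. The share was 4.6% for Cyp2c65 and 5.5% for Cyp2c66, all of it shared between these 2 genes. It was 8.8% for Cyp2c68, 22.5% for Cyp2c69 and 29.1% for Cyp2c40, which share windows among themselves and with Cyp2c67, a Cyp2c gene outside the 10. Exact windows give the least that is shared, since aligners also accept mismatches. The values of Cyp2c66, Cyp2c69 and Cyp2c40 are therefore uncertain, because reads of their abundant neighbours could have been counted for them or the reverse, and that of Cyp2c55 does not have this limit for exact windows.

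**Figure D1:**
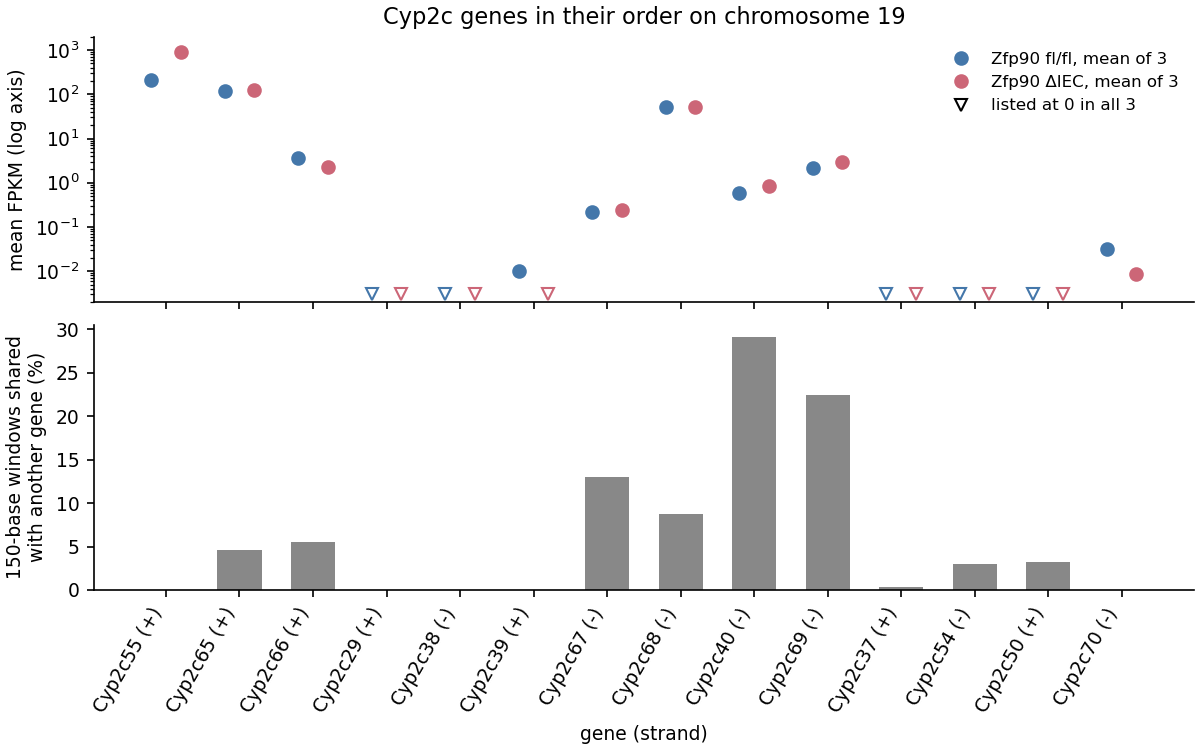
The upper panel shows the mean FPKM of 3 samples per genotype on a log axis for the 14 protein-coding Cyp2c genes of the cluster in their order on chromosome 19, and the lower panel the percentage of 150-base transcript windows found in another gene. Cyp2c55, at the start of the cluster, had the highest level in both genotypes and no shared window, and Cyp2c40 and Cyp2c69 had the largest shares of shared windows, 29.1% and 22.5%.

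Of the 10 genes, 7 were above 0 FPKM in at least 1 sample. Cyp2c29, an inducible liver enzyme, and Cyp2c37 and Cyp2c38, both arachidonic acid hydroxylases and epoxygenases, were listed at 0 in all 6 samples. Cyp2c39, known for the hydroxylation of retinoic acid, was at 0.0301 FPKM in Zfp90fl/fl replicate 1, which corresponds to about 1.43 fragments, and at 0 in the other 5 samples. These 4 genes shared few or no 150-base windows with other genes, at most 0.3%. Their zeros limit the level at this depth and do not show absence. The filter on low values, at least 1 FPKM in at least 3 samples, left 5 of the 10 genes for the test across all genes: Cyp2c55, Cyp2c65, Cyp2c66, Cyp2c68 and Cyp2c69.

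Cyp2c55, which oxidizes arachidonic acid, was at 233, 184 and 204 FPKM in the Zfp90fl/fl samples and at 771, 1154 and 811 FPKM in the Zfp90ΔIEC samples. Every Zfp90ΔIEC sample lay more than 3 times above the highest Zfp90fl/fl sample, and Zfp90ΔIEC replicate 2 was the highest of all. The means were 207 ± 24.9 FPKM and 912 ± 210 FPKM (SD, n = 3 each). On the scale of log2(FPKM + 1) the difference was 2.12, with a standard error of 0.164 and a 95% interval from 1.73 to 2.51. Among all genes of a sample, Cyp2c55 ranked 132, 187 and 162 by FPKM in the Zfp90fl/fl samples and 41, 28 and 38 in the Zfp90ΔIEC samples. It had the highest FPKM of all cytochrome P450 genes in each of the 6 samples and made up 26.9% ± 3.30 of their summed FPKM in Zfp90fl/fl and 61.2% ± 4.40 (SD, n = 3 each) in Zfp90ΔIEC mice.

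Cyp2c65, the next gene on the chromosome, was at 101, 140 and 114 FPKM in the Zfp90fl/fl samples and at 116, 149 and 119 FPKM in the Zfp90ΔIEC samples. The genotypes overlapped, and replicate 2 was the highest in both. The log2 difference was 0.12 (standard error 0.141), with a 95% interval from -0.22 to 0.45, and it ranged from 0.003 to 0.241 with a sample left out, lowest without Zfp90ΔIEC replicate 2. The ratio of Cyp2c55 to Cyp2c65 within a sample was 1.80 ± 0.494 in Zfp90fl/fl and 7.08 ± 0.587 (SD, n = 3 each) in Zfp90ΔIEC mice.

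Cyp2c66, the near-identical neighbour of Cyp2c65, was at 3.46, 3.74 and 3.65 FPKM in the Zfp90fl/fl samples and at 2.01, 2.35 and 2.49 FPKM in the Zfp90ΔIEC samples. All 3 Zfp90ΔIEC samples lay below the Zfp90fl/fl samples, the opposite direction to Cyp2c55. The log2 difference was -0.49 (standard error 0.0762; 95% interval from -0.67 to -0.31) and did not pass the threshold over all genes. Its level was 3.10% ± 0.379 of that of Cyp2c65 in Zfp90fl/fl and 1.80% ± 0.261 (SD, n = 3 each) in Zfp90ΔIEC mice. The sum of Cyp2c65 and Cyp2c66, which reads exchanged between them would change only through the transcript lengths of 1928 and 1630 bases, was 122 ± 19.7 FPKM and 130 ± 18.4 FPKM (SD, n = 3 each) and overlapped.

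Cyp2c68 was at 59.7, 50.6 and 44.4 FPKM in the Zfp90fl/fl samples and at 56.5, 46.8 and 55.4 FPKM in the Zfp90ΔIEC samples. The genotypes overlapped, with a log2 difference of 0.04 (standard error 0.121; 95% interval from -0.24 to 0.33). Without Zfp90fl/fl replicate 3 this difference was -0.06 and without Zfp90ΔIEC replicate 1 it was -0.01, so that its sign rested on single samples.

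Cyp2c69 was at 2.68, 2.29 and 1.497 FPKM in the Zfp90fl/fl samples and at 2.14, 4.25 and 2.26 FPKM in the Zfp90ΔIEC samples. Only Zfp90ΔIEC replicate 2 lay outside the Zfp90fl/fl range, and the log2 difference was 0.28 (standard error 0.228; 95% interval from -0.26 to 0.82), which became 0.04 without that sample. Cyp2c40, an arachidonic acid hydroxylase, was at 1.18, 0.0111 and 0.605 FPKM and at 0.709, 1.02 and 0.797 FPKM in the same order of samples. The value of Zfp90fl/fl replicate 2 corresponds to about 0.576 of a fragment at the lower of 2 depth estimates, 28.7 M fragments, and to more at the higher, 56.5 M, so that it rests on about 1 fragment or less. Cyp2c40 lay below the filter, and without the filter its log2 difference was 0.27 (standard error 0.281), which became -0.03 without Zfp90fl/fl replicate 2 and 1.00 with a pseudocount of 0.1 in place of 1. The sum of Cyp2c40, Cyp2c68 and Cyp2c69 was 54.3 ± 8.59 FPKM in Zfp90fl/fl and 56.6 ± 3.96 FPKM (SD, n = 3 each) in Zfp90ΔIEC mice, also with overlap.

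**Figure D2:**
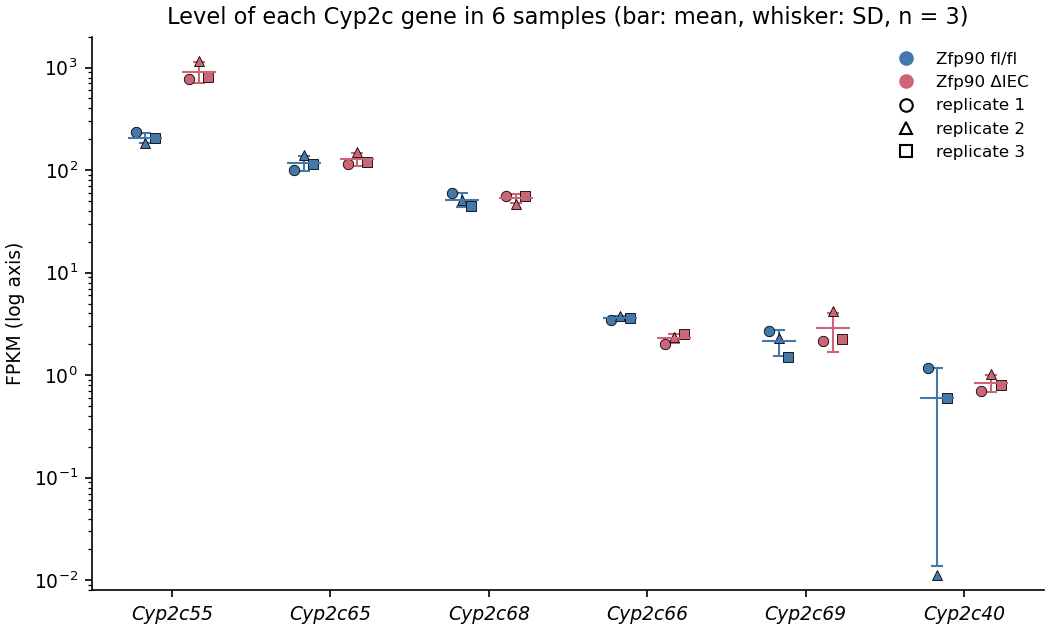
FPKM on a log axis of the 6 of the 10 Cyp2c genes that were above 0 FPKM in every sample, with 3 samples per genotype as points, their mean as a bar and the SD as a whisker. Cyp2c55 is separated by genotype, from 184 to 233 against 771 to 1154 FPKM, Cyp2c66 lies lower in Zfp90ΔIEC samples, and the other 4 genes overlap.

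The order of the levels was Cyp2c55, Cyp2c65, Cyp2c68, Cyp2c66, Cyp2c69 and Cyp2c40 in Zfp90fl/fl mice, and no neighbours in this order had overlapping ranges over the 3 samples. In Zfp90ΔIEC mice Cyp2c69 and Cyp2c66 changed places, with overlapping ranges, and the other neighbours did not overlap. Of the 5 genes tested, 1, Cyp2c55, was past the threshold of an adjusted p under 0.05 (limma over all genes with Benjamini-Hochberg adjustment) and 4 were not, where 0.199% of the 11564 genes tested passed, 0.0692% as higher and 0.13% as lower in Zfp90ΔIEC samples. The genotypes did not overlap in 2 of the 5, Cyp2c55 and Cyp2c66, where 21.3% of all genes tested did not overlap, 8.73% with higher and 12.6% with lower values in Zfp90ΔIEC samples. The median log2 difference of the 5 was 0.12, against -0.02 over all genes tested. No support is drawn from these counts, since the genes were chosen with the contrast known and the filter kept those with higher levels.

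The 10 genes summed to 402, 380 and 368 FPKM in the Zfp90fl/fl samples and to 948, 1357 and 992 FPKM in the Zfp90ΔIEC samples, or means of 383 ± 17 FPKM and 1099 ± 225 FPKM (SD, n = 3 each). Without Cyp2c55 the sum was 176 ± 17.5 FPKM and 187 ± 14.4 FPKM (SD, n = 3 each), and the genotypes overlapped. The difference in the total thus lay almost wholly in 1 gene.

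Cyp2c55 made up 58.1%, 48.4% and 55.4% of the sum in the Zfp90fl/fl samples and 81.3%, 85.0% and 81.8% in the Zfp90ΔIEC samples. The mean share was 54.0% ± 5.02 and 82.7% ± 2.00 (SD, n = 3 each), a difference of 28.8 percentage points. Shares of a sum are bound to each other, so the share of Cyp2c65 was lower, 30.96% ± 5.75 against 11.7% ± 0.661, and that of Cyp2c68 too, 13.4% ± 1.40 against 5.00% ± 1.35 (SD, n = 3 each), although the levels of both genes overlapped between genotypes. The spread of the Cyp2c55 share was wider in Zfp90fl/fl mice, where replicate 2 had the lowest Cyp2c55 and the highest Cyp2c65 of its group.

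**Figure D3:**
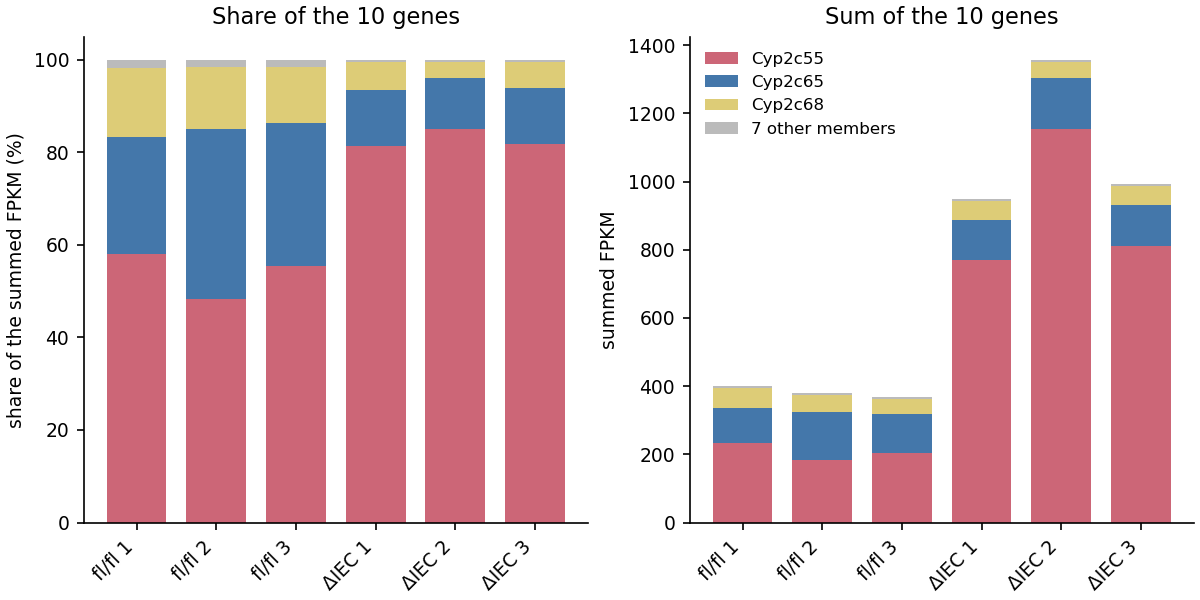
Stacked bars for each sample show the share of Cyp2c55, Cyp2c65, Cyp2c68 and the 7 other genes in the summed FPKM of the 10 (left, in percent) and the sum itself (right, in FPKM). The share of Cyp2c55 runs from 48.4% to 58.1% in Zfp90fl/fl and from 81.3% to 85.0% in Zfp90ΔIEC samples, and the Cyp2c65 and Cyp2c68 parts keep about the same height on the right.

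The Cyp2c genes outside the 10 were near or at 0. Cyp2c50, Cyp2c54 and the pseudogene Cyp2c53-ps were listed at 0 in all 6 samples, and Cyp2c70, which hydroxylates bile acids in liver, stayed at or below 0.0775 FPKM. Cyp2c67 was at 0.217 ± 0.0669 FPKM in Zfp90fl/fl and 0.237 ± 0.0217 FPKM (SD, n = 3 each) in Zfp90ΔIEC mice (adjusted p = 0.868 from limma without the filter). Cyp2c23, an epoxygenase also named Cyp2c44, was at 0.0987 ± 0.00908 FPKM and 0.152 ± 0.0426 FPKM (SD, n = 3 each), values that did not overlap but did not pass the test (adjusted p = 0.537 from limma without the filter). Adding these genes moved the total by less than 1 FPKM in each sample. The pseudogene Cyp2c52-ps, which lies just before Cyp2c55, was at 0.109 ± 0.0377 FPKM and 0.0454 ± 0.0450 FPKM (SD, n = 3 each).

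The genes on either side of the cluster did not pass the test. Of the 5 nearest tested genes before it and the 5 after it, 0 passed the threshold in limma, 1 had an unadjusted p under 0.05, and the log2 differences lay between -0.13 and 0.26. These neighbours were chosen after the values of the cluster had been seen.

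The partners that a P450 needs were measured in all samples. Of 15 genes for electron transfer and for heme synthesis and breakdown, all 15 were tested and 0 passed the threshold, while 2 had an unadjusted p under 0.05 in limma, as did 14.6% of all genes tested, and their median log2 difference was 0.10 against -0.02 over all genes. Por, the reductase that supplies every Cyp2c enzyme with electrons, was at 20.1, 23.1 and 20.8 FPKM in the Zfp90fl/fl samples and at 26.1, 30.9 and 25.3 FPKM in the Zfp90ΔIEC samples. The samples did not overlap, but the log2 difference of 0.35 (standard error 0.0917) did not pass (adjusted p = 0.161 from limma). Alas1, the first enzyme of heme synthesis, was at 18.1 ± 1.47 FPKM and 19.9 ± 3.29 FPKM (SD, n = 3 each; adjusted p = 0.669 from limma). Urod, a later enzyme of that pathway, had a log2 difference of 0.17 (standard error 0.0934, adjusted p = 0.445 from limma).

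Genes that supply arachidonic acid or open its epoxides, listed with lipoxygenases and P450 genes outside Cyp2c, did not pass either. Of 17 such genes, 11 were tested and 0 passed, with 1 unadjusted p under 0.05 in limma and a median log2 difference of -0.04. Ephx2, the soluble epoxide hydrolase that opens the epoxides made by Cyp2c enzymes, was at 9.81 ± 0.337 FPKM and 9.57 ± 1.04 FPKM (SD, n = 3 each; adjusted p = 0.874 from limma). Pla2g4a, which frees arachidonic acid from membranes, was at 9.92 ± 0.558 FPKM and 9.85 ± 0.558 FPKM (SD, n = 3 each; adjusted p = 0.958 from limma). Pla2g2a, a secreted phospholipase, was at 3.56, 3.70 and 4.56 FPKM in the Zfp90fl/fl samples and at 1.92, 1.82 and 2.29 FPKM in Zfp90ΔIEC samples. It was lower in 3 of 3 Zfp90ΔIEC samples, with a log2 difference of -0.71 (standard error 0.101) that did not pass (adjusted p = 0.0632 from limma). Cyp2j6, a P450 epoxygenase of the gut outside Cyp2c, had a log2 difference of -0.26 (standard error 0.138, adjusted p = 0.437 from limma).

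Of 16 transcription factors known to act on Cyp2c genes, 14 were tested and 0 passed, with 1 unadjusted p under 0.05 in limma and a median log2 difference of -0.10. Nr1i2, the pregnane X receptor PXR, which turns on P450 genes when bound by drugs and bile acids, was at 39.5 ± 1.19 FPKM and 38.1 ± 1.60 FPKM (SD, n = 3 each; adjusted p = 0.726 from limma). Hnf4a, a factor that many liver and gut P450 genes need, was at 160.0 ± 5.00 FPKM and 152.0 ± 9.38 FPKM (SD, n = 3 each; adjusted p = 0.640 from limma). Nr1i3, the receptor CAR, lay below the filter at 1.06 ± 0.309 FPKM and 0.786 ± 0.167 FPKM (SD, n = 3 each). The differences furthest from 0 were those of Nr3c1, the glucocorticoid receptor, at -0.31 (standard error 0.201, adjusted p = 0.531 from limma; -0.06 without Zfp90ΔIEC replicate 2), and of Nr1h4, the bile acid receptor FXR, at -0.30 (standard error 0.152, adjusted p = 0.424 from limma). Amounts of these mRNAs do not give the activity of the receptors.

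Genes known as PXR and CAR targets were then compared. Of 14 targets, 9 were tested, 1 rose and 8 did not pass, 7 of the 9 had a log2 difference above 0, 5 had an unadjusted p under 0.05 (14.6% over all genes), and the median was 0.32 against -0.02 over all genes. Ces2a, a carboxylesterase, rose from 24.1, 20.8 and 20.7 FPKM in Zfp90fl/fl to 33.1, 38.5 and 38.4 FPKM in Zfp90ΔIEC samples, a log2 difference of 0.72 (standard error 0.0879, adjusted p = 0.0434 from limma, from 0.0409 to 0.153 over its 11 alternatives, of which 2 passed). Abcb1a, the drug efflux pump P-glycoprotein, was at 56.3, 44.4 and 46.0 FPKM and at 86.3, 118 and 96.8 FPKM, without overlap, with a log2 difference of 1.02 (standard error 0.136) just above the threshold (adjusted p = 0.0547 from limma, from 0.0555 to 0.163 over its alternatives). Sult1a1, a sulfotransferase, had a log2 difference of 0.38 (standard error 0.136, adjusted p = 0.272 from limma). Cyp3a11 and Cyp2b10, the usual reporters of PXR and CAR in liver, were at or near 0, with at most 0.0216 and 0.0424 FPKM in any sample.

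**Figure D4:**
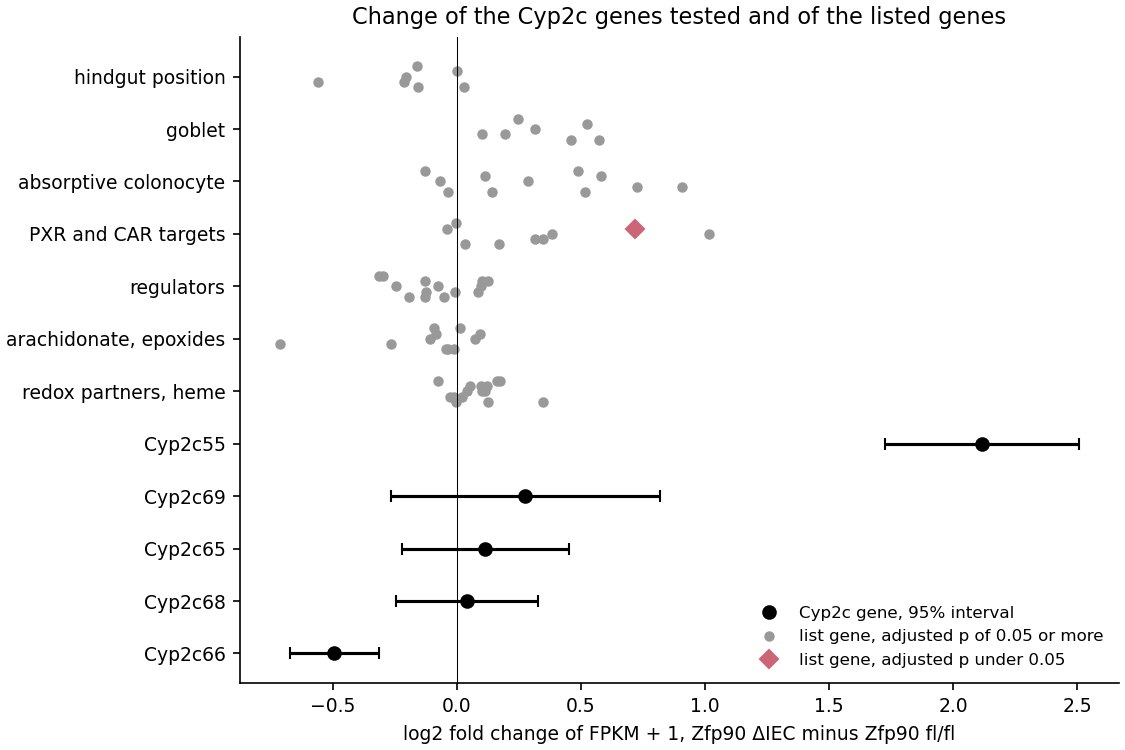
The log2 difference of FPKM + 1, Zfp90ΔIEC minus Zfp90fl/fl, is shown for the 5 Cyp2c genes tested, with 95% intervals, and for each tested gene of 4 pathway and 3 marker lists as points. Cyp2c55 at 2.12 lies to the right of every list gene shown, Cyp2c66 lies at -0.49, and 1 list gene, Ces2a, has an adjusted p under 0.05.

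The tissue was checked against its markers. Epithelial markers such as Krt8 and Epcam summed to between 5886 and 6687 FPKM in Zfp90fl/fl and between 5845 and 6402 FPKM in Zfp90ΔIEC samples, whereas leukocyte markers summed to 3.95 to 5.72 FPKM and 1.06 to 1.66 FPKM and stromal markers to 0.561 to 0.687 FPKM and 0.600 to 1.17 FPKM. Hepatocyte markers were low, between 11.6 and 18.6 FPKM in sum, nearly all Ttr, and Alb, their defining marker, was at or below 0.678 FPKM. Cell number and RNA per cell cannot be told apart in bulk samples.

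Markers of absorptive colonocytes, the mature surface cells of the colon, were also compared. Their 11 genes summed to between 6400 and 8215 FPKM in Zfp90fl/fl and between 9212 and 13290 FPKM in Zfp90ΔIEC samples, without overlap. Of all single genes tested, 21.3% did not overlap. Of the 11 markers, 0 passed the threshold, 8 had a log2 difference above 0 and 3 below it. An unadjusted p under 0.05 in limma was found for 5, beside 14.6% of all genes tested. The median log2 difference of the 11 was 0.29, against -0.02 over all genes. Car1, a carbonic anhydrase that makes up most of the sum, had a log2 difference of 0.73 (adjusted p = 0.162 from limma), and Slc9a3, a sodium-proton exchanger, one of 0.91 (adjusted p = 0.125 from limma). Per 1000 FPKM of these markers, Cyp2c55 was at 29.1 ± 7.06 FPKM in the Zfp90fl/fl samples and at 83.0 ± 4.17 FPKM in Zfp90ΔIEC mice (SD, n = 3 each), still without overlap and 2.85 times as high. Per the same markers Cyp2c65 was lower in Zfp90ΔIEC mice, at 16.2 ± 0.649 FPKM and 11.8 ± 0.695 FPKM (SD, n = 3 each), also without overlap. Both results rest mostly on Car1, which makes up most of the marker sum, and neither was computed without it. Zfp90ΔIEC replicate 2, the sample highest in Cyp2c55, was also the highest in the summed markers. The part of these cells in the difference of Cyp2c55 was not tested.

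Goblet cell markers, 7 of 7 with a log2 difference above 0 and a median of 0.31, and enteroendocrine markers, with a median of 0.35, included 0 past the threshold and 2 and 3 with an unadjusted p under 0.05 in limma. Of 6 cycling markers, 6 had an unadjusted p under 0.05 in limma, again beside 14.6% of all genes tested, and 1 rose, Mki67, with a log2 difference of 0.41 (standard error 0.0512, adjusted p = 0.0478 from limma) that passed in 1 of its 11 alternatives. Of 3 mast cell markers tested, 2 fell, Mcpt1 and Mcpt2, where 0.13% of all genes tested passed as lower. Mcpt1 averaged 11.27 and 0.787 FPKM, and Mcpt2 5.32 and 0.288 FPKM, in Zfp90fl/fl and Zfp90ΔIEC samples. Both met the filter through the Zfp90fl/fl samples, where they were high, so no support is drawn from these calls. Kit, the third, had a log2 difference of 0.105 (adjusted p = 0.868 from limma). The small intestinal marker Fabp2 was at 185 ± 19.1 FPKM and 354 ± 92.5 FPKM (SD, n = 3 each; adjusted p = 0.0995 from limma), and 0 of 4 tested markers of that list passed, with 2 under an unadjusted 0.05. Genes that mark position along the hindgut, such as Hoxd13, had a median of -0.16, with 0 of 7 tested past the threshold and 0 with an unadjusted p under 0.05 in limma, and the 3 crypt stem cell markers tested had a median of -0.03 with 0 past it and 0 under an unadjusted 0.05. Tuft cell markers summed to at most 1.49 FPKM and none was tested. The part of these cell types in the difference of Cyp2c55 was not tested.

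The genes nearest to Cyp2c55 in profile were sought by the root mean square difference between centred log2(FPKM + 1) values over the 6 samples, among the 6659 genes that averaged 5 FPKM or more. The nearest were Rell1 at 0.266, Mt1 at 0.374, Gm33424 at 0.458, Abcb1a at 0.554 and S100g at 0.569, where the Cyp2c55 profile itself had a root mean square of 1.08. S100g encodes a calcium-binding protein of absorptive cells and Mt1 a metallothionein, which binds zinc. The measure was led by the step between genotypes in each of the 5 genes, all of which were higher in Zfp90ΔIEC samples without overlap. Among the Zfp90ΔIEC samples, Rell1, Gm33424 and Abcb1a were highest in replicate 2, as Cyp2c55 was, and Mt1 and S100g in replicate 3. Rell1 was nearly flat over the Zfp90ΔIEC samples, at 12.35, 12.54 and 12.02 FPKM, where Cyp2c55 ran from 771 to 1154 FPKM. Among the Zfp90fl/fl samples, where Cyp2c55 was highest in replicate 1, only Abcb1a of the 5 was highest there, and Gm33424 was lowest there. These are 6 samples of 2 genotypes, and the likeness is a description.

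**Figure D5:**
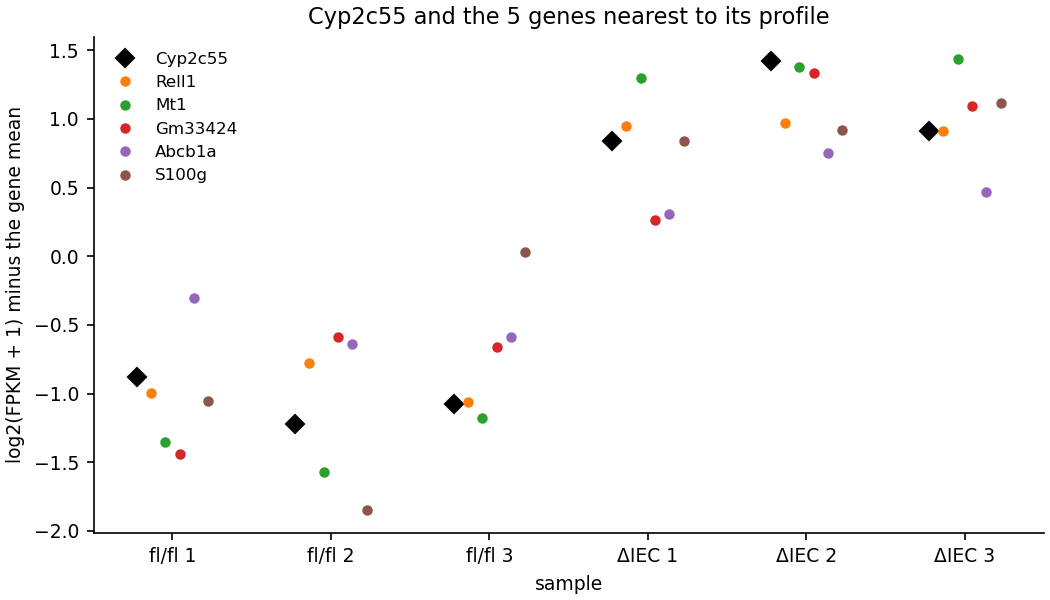
Points give log2(FPKM + 1) minus the mean over the 6 samples for Cyp2c55 (diamonds) and for the 5 genes with the smallest root mean square difference from it. All 6 genes lie lower in every Zfp90fl/fl sample than in any Zfp90ΔIEC sample, and Abcb1a has a smaller step, 1.02 against 2.12 on the log2 scale.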

How the data were processed

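Per the file headers and labels, each deposited file lists mouse Ensembl gene identifiers with 1 value per gene. The authors estimated these values as FPKM from strand-specific libraries read in pairs of 150 bases. The files carry no unit, and FPKM is taken from the methods and the range of values. Their paper names TopHat and Cuffdiff with a human genome, whereas the submitters' processing notes name FastQC, STAR 2.5, Cuffnorm, DESeq 1.22.1 and mm9. Of 52550 identifiers, 52403 had a symbol in GENCODE M21 (GRCm38).

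The test used log2(FPKM + 1) and the 11564 genes that reached 1 FPKM in 3 or more samples, with limma 3.58.1 in R 4.3.3 (trended empirical Bayes, Benjamini-Hochberg adjustment, threshold 0.05). In a simulation of the contrast over 11564 genes, values were independent normal draws, and some genes were shifted by 1 in log2(FPKM + 1). This shift is 2-fold in FPKM + 1 and larger in FPKM for genes of low level. Of the shifted genes, more in number than the 23 that passed in the samples, limma picked out 88.5%, and it made 5 false calls. That share is not taken as the power in the real samples, since the adjusted threshold depends on how many genes differ. In the samples 23 genes passed, and Abcb1a, with a log2 difference of 1.02, did not. A gene that did not pass may still differ between genotypes. Gene members and lists were chosen with earlier results of these data known. Genes named are the 10, other Cyp2c genes, Zfp90, in each list those past the threshold and the 2 of largest difference, and the 5 nearest in profile. Other genes named were chosen for their role.

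Depth is not given by the files. Steps between low values of single-transcript genes gave 26.1 to 28.7 M fragments per sample, and estimates of 52.1 to 57.3 M scored slightly higher and were not used, so fragment numbers are approximate. Transcript windows of 150 bases were compared exactly across all GENCODE transcripts, and coding sequences were aligned globally (Biopython 1.88). Alternatives were another pseudocount, no filter, 2 other scalings, a replicate block, each sample left out, a stricter threshold and other sums.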

Additional observations from a re-analysis of the deposited data

How the results depend on the processing

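The log2 difference of Cyp2c55 lay between 1.94 and 2.23 over 11 alternatives, given as a description since the gene was chosen on this contrast. In the test without the filter on low values, over 27805 genes, it was 2.12 and 0 of the 10 genes passed (5 genes had been tested with the filter and 7 without). The number of genes past the threshold over all genes was 23, and it was 13 with a pseudocount of 0.1, 15 without the filter, 6 at an adjusted p under 0.01, and between 10 and 21 with a sample left out, lowest without Zfp90fl/fl replicate 2. With the replicate block it was 47, 18 of them among the 23. Same-numbered samples deviated from their group means with correlations of 0.194, 0.110 and 0.0782, so that the numbers were not taken as pairs. With the block Pla2g2a (adjusted p = 0.0414, from 0.0414 to 0.167 over its alternatives), Car1 (0.0403, from 0.0403 to 0.481) and Slc9a3 (0.0423, from 0.0423 to 0.281) passed in limma. Of the pathway genes, the 1 past the threshold, Ces2a, became 0 with a pseudocount of 0.1, with quantile normalization and, at the lowest, with a sample left out (0 to 1). Ces2a was also lost with the block and without the filter, where 1 other gene passed in its place, Pla2g2a as lower and Cyp3a25 as higher. The cause was not tested. The difference of Cyp2c68 ranged from -0.059 to 0.15 with a sample left out, and was below 0 without Zfp90fl/fl replicate 3 and, at -0.007, without Zfp90ΔIEC replicate 1. That of Cyp2c40, 0.27 in the fit without the filter, turned to -0.027 without Zfp90fl/fl replicate 2 and was 1.00 with a pseudocount of 0.1. That of the crypt marker Rgmb, 0.09, ranged from -0.106 without Zfp90ΔIEC replicate 1 to 0.19. The log2 ratio of the family total was 1.52 and became 0.085 when Cyp2c55 was taken out. The difference in the share of Cyp2c55, 28.8 percentage points, lay between 25.97 without Zfp90fl/fl replicate 2 and 30.83 without Zfp90fl/fl replicate 1. With FPKM times transcript length it was 27.99. At this depth genes far below 1 FPKM rest on few fragments, and 0 in a file may stand for a low level.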

Other observations

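Cyp3a25, a P450 of the PXR and CAR list that lay below the filter, was listed at 0 in the 3 Zfp90fl/fl samples and at 0.201, 0.222 and 0.231 FPKM in Zfp90ΔIEC replicates 1, 2 and 3. Without the filter it had a log2 difference of 0.284 (standard error 0.0168) and an adjusted p of 0.0199 from limma. The 3 values at 0 have no spread and the others lie near 0, so no conclusion is drawn from that p. It was singled out after its values were seen, and it belongs to a group of closely related Cyp3a genes among which reads can be split.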
